A study of Mus musculus with 12 samples.

Results

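6 genes of the mouse retina are described here: the 3 activating receptors for the constant (Fc) part of IgG, Fcgr1, Fcgr3 and Fcgr4, the inhibitory receptor Fcgr2b, the shared signalling chain Fcer1g, and the Fc receptor-like gene Fcrls. They were taken by gene name from tables of 54367 genes, and all 6 were found once in each table. The libraries are poly(A) RNA of whole retinas of wildtype C57BL/6 mice aged 8 to 12 weeks. In the laser groups the right eye had received burns from a 532 nm laser (spots of 75 µm, 0.1 s) at 4 positions of the retina, and in the control groups the retina came from left eyes without laser. Retinas were taken on day 3 or day 7, with 3 libraries in each of the 4 groups. The labels do not say that equal replicate numbers mark one mouse, so any test measures the spread between these samples, which may be technical.

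Fc receptors let cells of the innate immune system sense antibody that has bound a target. Fcgr1, Fcgr3 and Fcgr4 have no signalling motif of their own in their short tails and work through Fcer1g, the common gamma chain, whose activation motif (ITAM) recruits the kinase Syk. Fcgr2b carries an inhibitory motif (ITIM) in its own tail, which recruits the phosphatase Inpp5d and dampens the signal. In the mouse, Fcgr1 binds monomeric IgG with high affinity and is induced by interferon gamma, Fcgr3 and Fcgr4 bind immune complexes, and Fcrls, which is used as a marker of microglia, is not known as a receptor for IgG. Microglia are the resident phagocytes of the retina, and monocytes and neutrophils of the blood carry Fc receptors as well.

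Promoter windows show what sequence the genes have in common at their starts. All 6 have at least 1 window in the RefSeq table for GRCm38.p6, which runs from 250 bases before to 50 after a start, and the deposited tables use mm10, the same assembly. In all, 3 motifs were searched on both strands: GAGGAA, the core of the PU box bound by the myeloid factor PU.1, TTCNNNGAA, the gamma activated site of genes induced by interferon gamma, and a form of the interferon response element, GAAA, any 2 bases and GAAA again. The windows of the 4 genes with a PU box core are printed 5′ to 3′, with the matches of any of the 3 motifs in capitals (TTCCTC is GAGGAA read on the other strand). Fcgr3 has 2 windows in the table that differ by a few bases in position, and the first is shown.
Fcgr1 (chr3:96293920-96294219, minus strand): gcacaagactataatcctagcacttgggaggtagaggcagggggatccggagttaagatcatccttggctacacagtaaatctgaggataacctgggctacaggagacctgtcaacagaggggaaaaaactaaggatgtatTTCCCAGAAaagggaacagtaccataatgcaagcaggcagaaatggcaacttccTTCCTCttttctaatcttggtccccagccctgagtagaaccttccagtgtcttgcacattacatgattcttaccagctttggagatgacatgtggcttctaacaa
Fcgr3 (chr1:171059354-171059653, minus strand): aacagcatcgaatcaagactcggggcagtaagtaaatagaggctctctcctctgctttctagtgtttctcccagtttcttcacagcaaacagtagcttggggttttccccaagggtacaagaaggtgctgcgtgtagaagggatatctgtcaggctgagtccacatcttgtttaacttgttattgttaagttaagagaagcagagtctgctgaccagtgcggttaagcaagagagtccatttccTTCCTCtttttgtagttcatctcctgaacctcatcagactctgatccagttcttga
Fcgr4 (chr1:171018676-171018975, plus strand): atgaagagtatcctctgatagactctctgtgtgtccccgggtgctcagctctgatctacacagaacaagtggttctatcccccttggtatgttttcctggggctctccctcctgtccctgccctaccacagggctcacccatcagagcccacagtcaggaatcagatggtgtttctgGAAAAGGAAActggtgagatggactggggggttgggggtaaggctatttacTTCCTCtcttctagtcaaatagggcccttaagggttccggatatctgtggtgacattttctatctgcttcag
Fcrls (chr3:87263475-87263774, minus strand): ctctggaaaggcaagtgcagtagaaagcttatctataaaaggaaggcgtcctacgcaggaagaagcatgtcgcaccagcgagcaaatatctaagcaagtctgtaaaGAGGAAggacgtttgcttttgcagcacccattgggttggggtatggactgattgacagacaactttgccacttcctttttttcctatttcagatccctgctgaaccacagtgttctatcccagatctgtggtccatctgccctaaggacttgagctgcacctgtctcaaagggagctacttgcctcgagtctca
GAGGAA was found once each in Fcgr1, Fcgr3, Fcgr4 and Fcrls, and in 28.3% of all 32851 windows. TTCNNNGAA was found in Fcgr1 only among the 6 genes, as TTCCCAGAA, and in 8.3% of all windows. The interferon response element was found in Fcgr4 only, as GAAAAGGAAA, and in 3.44% of all windows. None of the printed matches overlapped another, and the windows of Fcgr2b and Fcer1g held none of the 3 motifs. A match says only that these letters are present.

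Fcgr2b, Fcgr3, Fcgr4 and Fcer1g lie on chromosome 1 and Fcgr1 and Fcrls on chromosome 3. Fcgr2b (ENSMUSG00000026656) spans 170958617 to 170976547, Fcgr4 (ENSMUSG00000059089) 171018920 to 171029761, Fcgr3 (ENSMUSG00000059498) 171051174 to 171064935 and Fcer1g (ENSMUSG00000058715) 171229572 to 171234365. On chromosome 3, Fcrls (ENSMUSG00000015852) spans 87250758 to 87263738 and Fcgr1 (ENSMUSG00000015947) 96282909 to 96293969. Fcgr2b and Fcgr3 share coding sequence, which limits how well their reads can be told apart. The longest identical coding run, 129 bases in GENCODE M21, crosses an exon junction in both genes (chr1:170966674-170968081 in Fcgr2b and chr1:171054167-171057792 in Fcgr3, minus strand).
Fcgr2b and Fcgr3 shared run: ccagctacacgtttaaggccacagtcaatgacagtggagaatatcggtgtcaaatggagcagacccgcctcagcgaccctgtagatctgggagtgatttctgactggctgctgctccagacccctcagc
Of the 50-base words of Fcgr3 transcripts 9.58% also occur in another gene, Fcgr2b in every case. Of those of Fcgr2b 4.38% (249) do so, 166 of them in Fcgr3 and the others in genes such as Gm4117, Gm33843, Pou2f2 and Gm35909. The values of Fcgr2b and Fcgr3 are therefore uncertain where the counting could split such reads. No 50-base word of Fcgr1, Fcgr4, Fcer1g or Fcrls occurs in a transcript of another gene, a share of 0.0%. The antisense gene Gm38204 overlaps Fcgr2b, the small RNA Gm26110 lies within Fcgr4 and Mir6546 within Fcgr3, and each of these is listed with 0 reads in all 12 libraries.

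The deposited values are scaled by gene length and library, so levels of different genes can be compared within a library. Reads assigned to genes, recovered from the steps of the values, numbered 9281993 to 12515806 in the libraries of day 3, and those of day 7 held 23886172 to 31092847. Retina markers were present in every library. On day 3 the 10 markers summed to 19961 to 25022 in controls and 8412 to 21627 in lasered retinas. Their median log2 difference was -0.57, with 2 of the 10 above every control and 4 below. On day 7 they summed to 49320 to 53503 and 41536 to 48110, without overlap. The median was then 0.05, with 3 above every control and 1 below. Sag, the arrestin of photoreceptors, read 2390 to 2567 in day 3 controls and 2608 to 2752 in day 3 lasered retinas. It was 1 of the 2 markers above every control, and only 3 of the 10 had a log2 difference above 0. Glul, an enzyme of Müller glia and 1 of the 4 below every control, read 310 to 318 and 67.2 to 285. Both markers were chosen after their values were seen, and neither stands for the other markers of its cell type. Lasered replicate 1 of day 3 stood apart, with the lowest Glul and the highest sums of monocyte, neutrophil and platelet markers. The main results of day 3 are therefore also given without it. In bulk retina, fewer cells of a type and less RNA per cell cannot be told apart.

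The members were proposed with the laser contrasts of both days known, so their differences between lasered and control retinas are given as a description without p-values. Every lasered library lay above every control library of its day for all 6 genes on both days. The same held for 27.7% of the 16786 genes tested on day 3 and for 6.78% of the 15592 genes tested on day 7. The mean values were 9.11 to 42.9 times those of controls on day 3 and 3.68 to 7.32 times on day 7. Without lasered replicate 1 the range of day 3 was 3.94 (Fcer1g) to 15.4 (Fcrls). In the fit of day 3, 1 of the 6 genes, Fcrls, passed an adjusted p of 0.05 as higher (limma, Benjamini-Hochberg), against 0.143% of all genes tested. In that of day 7, 2 of the 5 members in the fit, Fcrls and Fcgr3, passed as higher, against 0.237% of all genes. Nothing is read from these 2 counts, since the members were chosen on the same contrasts. The count of day 3 was 0 with any 1 control or lasered replicate 3 left out, and 4 without lasered replicate 1 (Fcer1g, Fcgr3, Fcgr4 and Fcrls), where 1.70% of all genes tested were called higher. That of day 7 was 0 with any 1 library other than lasered replicate 2 left out, and 3 with the replicate number as a block, which added Fcer1g. A gene entered a fit when its 6 libraries averaged 1 or more. Of the members in the fit, 4 of 6 on day 3 and 2 of 5 on day 7 had a control mean under 1 and entered it through the lasered libraries.

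**Figure D1:**
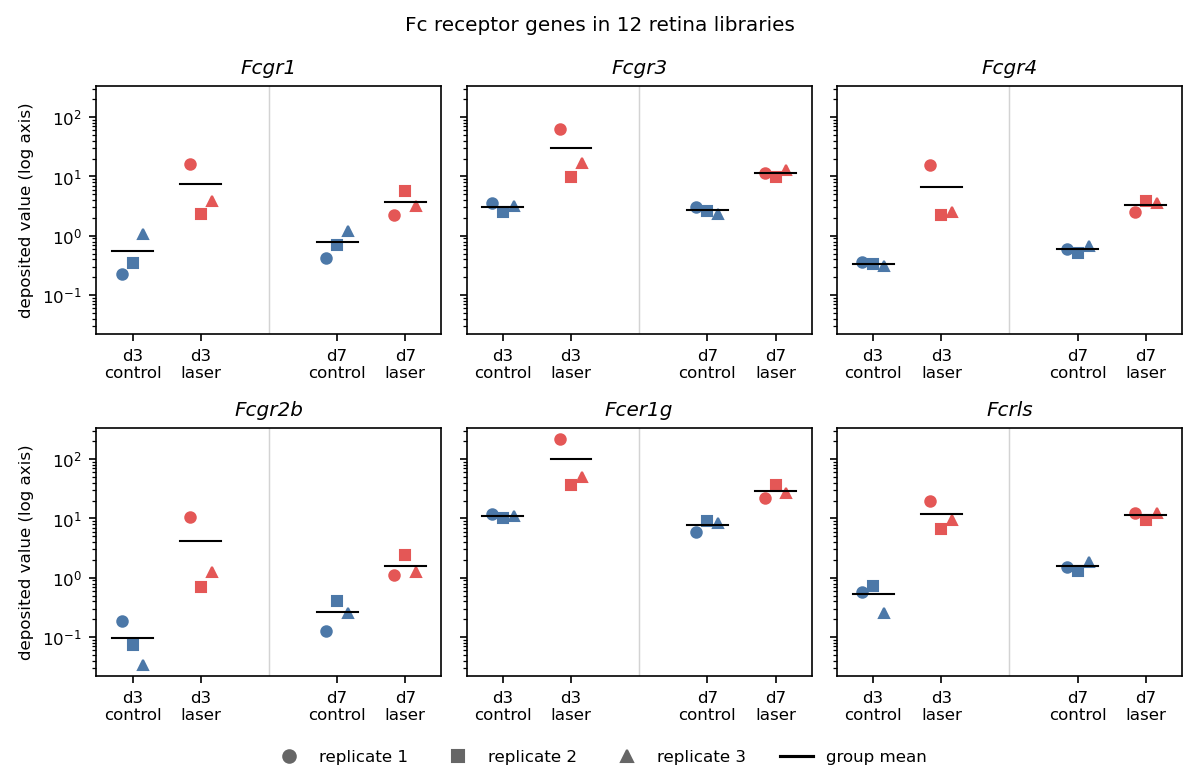
Deposited value of each of the 6 genes (log axis) in the 12 libraries, with 1 point per library, shapes for the replicate number and a bar for the group mean. The lasered libraries lie above the controls of the same day in every panel, and replicate 1 is the highest lasered library of day 3 in each.

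Among the activating receptors, Fcgr3, the low-affinity receptor that binds immune complexes, had the highest values. On day 3 it read 3.58, 2.52 and 3.21 in control replicates 1, 2 and 3 and 63.1, 9.79 and 17.0 in lasered replicates 1, 2 and 3. The lowest lasered library was 2.73 times the highest control, and the lasered libraries spread over 6.44-fold where the controls spread over 1.42-fold. On the scale of log2(value + 1), where changes of low genes appear smaller than they are, the groups differed by 2.50 (SE 0.59, n = 3 per group), and 1.77 without lasered replicate 1. On day 7 the controls read 3.06, 2.64 and 2.37 and the lasered retinas 11.2, 9.68 and 12.9. These lasered libraries lay within 1.33-fold of each other, at a log2 difference of 1.73 (SE 0.21).

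Fcgr1, the high-affinity receptor for IgG, read 0.225, 0.345 and 1.08 in day 3 controls and 16.1, 2.30 and 3.84 in day 3 lasered retinas. The control values rest on 4, 6 and 14 reads and vary 4.82-fold, and lasered replicate 1 is again the highest. The log2 difference was 2.11 (SE 0.58), and 1.41 without lasered replicate 1. On day 7 Fcgr1 read 0.419, 0.700 and 1.22 in controls and 2.21, 5.59 and 3.22 after laser. The log2 difference was 1.35 (SE 0.34). Here replicate 2 was the highest lasered library, and the gap between the groups was the narrowest of the family, the lowest lasered library being 1.82 times the highest control.

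Fcgr4, which binds mouse IgG2 subclasses, read 0.362, 0.340 and 0.315 in day 3 controls and 15.4, 2.21 and 2.51 in day 3 lasered retinas. The controls hold 3, 3 and 2 reads, and their total of 8 has an exact 95% Poisson interval of 3.45 to 15.8, which covers counting error only. The lasered total was 130 reads. Lasered minus control was 2.09 on the log2 scale (SE 0.59), and 1.33 without lasered replicate 1. On day 7 it was 1.43 (SE 0.24), from 0.590, 0.508 and 0.679 in controls to 2.52, 3.85 and 3.63 in lasered retinas, with no overlap between the groups.

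Fcgr2b, the inhibitory receptor, had the lowest values of the family in every group. On day 3 it read 0.183, 0.0739 and 0.0341 in controls, from 7, 3 and 1 reads, and 10.6, 0.694 and 1.25 in lasered retinas, from 300, 26 and 39 reads. The lasered libraries spread over 15.2-fold, the widest range of the 6 genes. Its ratio of means on day 3, 42.9, was 10.0 without lasered replicate 1. The log2 difference was 1.69 (SE 0.67), and 0.83 without that library, where the mean fell below the filter. On day 7 controls read 0.128, 0.404 and 0.252 and lasered retinas 1.11, 2.46 and 1.24, without overlap. The log2 difference was 1.01, and the gene did not enter the fit because the mean over the 6 libraries was 0.933. Its SE of 0.24 comes from the fit without the filter on low values.

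Fcer1g, the signalling chain, was the most abundant transcript of the 6 in all groups. It read 12.1, 10.4 and 11.0 in day 3 controls and 217, 37.5 and 50.6 in day 3 lasered retinas. The controls agreed within 1.16-fold, while lasered replicate 1 was 5.79 times the lowest lasered library. On the log2 scale the groups differed by 2.64 (SE 0.59), and 1.88 without lasered replicate 1. On day 7 controls read 6.01, 9.22 and 8.36 and lasered retinas 22.6, 37.3 and 27.0, again without overlap. The log2 difference was 1.75 (SE 0.25).

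Fcrls differed from the other members in the evenness of its lasered values on day 3. Controls read 0.585, 0.733 and 0.254, from 9, 12 and 3 reads, and lasered retinas 19.5, 6.55 and 9.61. The lasered range of 2.97-fold was the narrowest of the 6 genes, and the lowest lasered library was 8.94 times the highest control. Fcrls differed by 2.97 on the log2 scale (SE 0.36), and 2.57 without lasered replicate 1. On day 7 Fcrls read 1.54, 1.32 and 1.83 in controls and 12.3, 9.42 and 12.6 after laser. These libraries lay within 1.34-fold of each other, and the log2 difference was 2.27 (SE 0.22). It had the largest log2 difference of the family on both days, and on day 7 also the largest ratio of means, 7.32.

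**Figure D2:**
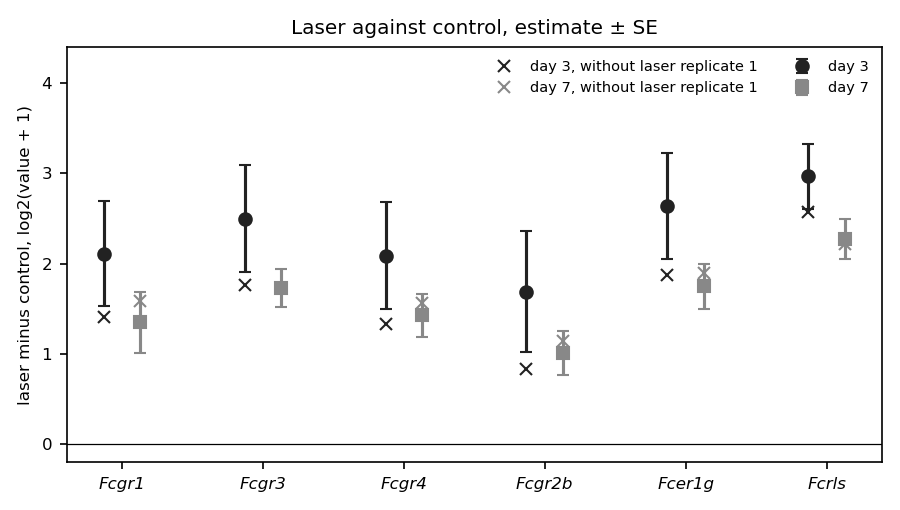
Difference between lasered and control retinas on the scale of log2(value + 1) for each gene and day, with bars for ± 1 SE (limma, 3 libraries per group), and crosses for the estimate without lasered replicate 1 of that day (for Fcgr2b on day 7, from the fit without the filter). Day 3 estimates run from 1.69 to 2.97 and move down without replicate 1, while day 7 estimates run from 1.01 to 2.27.

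The median log2 difference of the members was 2.30 on day 3, where that of all genes tested was 0.16, and 1.58 on day 7, where that of all genes was 0.06. Without lasered replicate 1 the day 3 medians were 1.59 for the members and 0.13 for all genes. After median-of-ratios rescaling the median of all genes on day 3 was -0.03, and Fcrls stood at 2.81, Fcer1g at 2.42, Fcgr3 at 2.31, Fcgr1 at 1.98, Fcgr4 at 1.96 and Fcgr2b at 1.59. The day 7 difference minus the day 3 difference, fitted over all 12 libraries, was negative for each member, from -0.66 (SE 0.68) for Fcgr4 to -0.89 (SE 0.70) for Fcer1g. For Fcrls it was -0.69 (SE 0.43). Without lasered replicate 1 of day 3 the sign was not shared: it was -0.05 for Fcgr1 (SE 0.47), -0.04 for Fcgr3 (SE 0.32), -0.13 for Fcer1g (SE 0.32) and -0.29 for Fcrls (SE 0.31). For Fcgr4 it was then 0.10 (SE 0.25) and for Fcgr2b, which fell below the filter, 0.18. Across all 17611 genes in that fit 0.0% passed, with 0 at an adjusted p under 0.05 and 1654 (9.39%) at an unadjusted p under 0.05 (limma). The days were sequenced to different depths and normalised in separate tables, so their levels are not compared.

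The order of the genes by level was compared within each group. In day 3 controls Fcer1g averaged 11.2 ± 0.855 (SD, n = 3) and Fcgr3 3.10 ± 0.539, each clear of the next gene in every library. Fcgr1 (0.551 ± 0.466), Fcrls (0.524 ± 0.245) and Fcgr4 (0.339 ± 0.0239) followed with ranges of Fcgr1 and Fcrls, and of Fcrls and Fcgr4, that overlapped. Fcgr2b was last at 0.0971 ± 0.0773. In day 7 controls Fcrls, at 1.56 ± 0.253, lay between Fcgr3 (2.69 ± 0.347) and Fcgr1 (0.779 ± 0.406) without overlap with either. In day 7 lasered retinas Fcrls (11.4 ± 1.76) and Fcgr3 (11.3 ± 1.61) overlapped, with Fcrls higher in 1 of 3 libraries.

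Ratios within a library do not depend on its scaling, beyond a factor of 0.955 to 1.05 that cycles with table row in the deposited values. With that factor removed, the same groups overlapped for each ratio given here, other than the day 3 share of Fcgr3. That share met at 69.1% in control replicate 3 and lasered replicate 3 as deposited, and overlapped, at 68.4% and 70.1%, once the factor was removed. Fcgr3 made up the largest part of the summed value of the 4 Fcgr genes, at 82.3%, 76.9% and 69.1% in day 3 controls and 59.9%, 65.3% and 69.1% in day 3 lasered retinas. The share of Fcgr1 in day 3 lasered retinas was 15.3%, 15.3% and 15.6%, while the summed value was 105, 15.0 and 24.6 in the same libraries. That evenness was not general, since the share of Fcgr1 was 5.16%, 10.5% and 23.4% in day 3 controls, and 25.9% and 15.3% in lasered replicates 2 and 3 of day 7. Fcgr2b, the inhibitory receptor, took 4.21%, 2.25% and 0.735% in day 3 controls and 10.0%, 4.63% and 5.08% in day 3 lasered retinas. The groups did not overlap, but the control shares rest on 7, 3 and 1 reads of Fcgr2b. On day 7 the shares of Fcgr2b were 3.05%, 9.51% and 5.58% in controls and 6.50%, 11.4% and 5.90% in lasered retinas, and the groups overlapped. Within equal replicate numbers of day 7 the share of Fcgr2b was higher in the lasered library of 3 of 3 pairs, that of Fcgr1 in 2 and that of Fcgr3 in 1. With only 3 pairs, all can fall one way by chance. The deviations of lasered replicates 1 and 2 from their group mean correlated best with the controls of their own numbers (0.485 and 0.559). Those of lasered replicate 3 correlated better with control replicate 1 (0.205) than with control replicate 3 (0.128). Equal numbers therefore do not clearly pair all of these libraries.

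**Figure D3:**
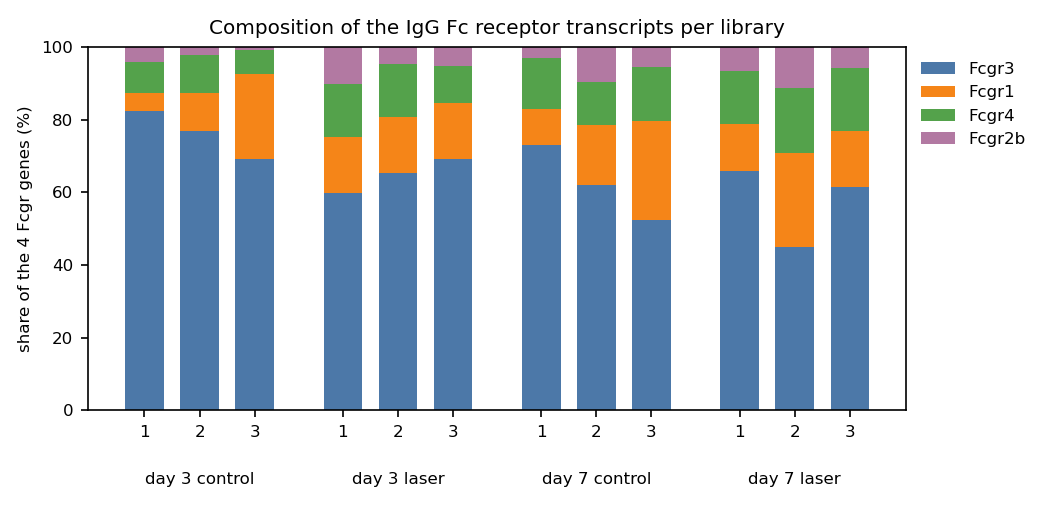
Percent of the summed value of Fcgr3, Fcgr1, Fcgr4 and Fcgr2b taken by each gene, with 1 bar per library and numbers for replicates. Fcgr3 is the largest part in all 12 libraries, and Fcgr2b takes between 0.735% and 11.4%.

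The gamma chain was set against the receptors that use it. Fcer1g was 2.89, 3.23 and 2.40 times the sum of Fcgr1, Fcgr3 and Fcgr4 in day 3 controls and 2.29, 2.62 and 2.17 times in day 3 lasered retinas. On day 7 the ratios were 1.48, 2.40 and 1.96 in controls and 1.41, 1.95 and 1.37 in lasered retinas. The groups overlapped on both days. On day 7 the ratio was lower in the lasered library of 3 of 3 equal-numbered pairs, a count from which nothing is read. Set against Fcrls, the sum of the 4 Fcgr genes was 2.72, 3.21 and 2.48 times as high in day 7 controls and 1.39, 2.29 and 1.67 times in day 7 lasered retinas, without overlap. On day 3 that ratio was 7.45, 4.48 and 18.3 in controls and 5.40, 2.29 and 2.56 in lasered retinas, and the groups overlapped.

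Markers of the cells that carry Fc receptors were summed in each library. The 10 microglia markers, such as P2ry12 and Tmem119, summed to 36.9, 39.8 and 38.4 in day 3 controls and to 56.0, 67.0 and 73.8 in lasered replicates 1, 2 and 3. The 10 markers of mononuclear phagocytes in general, such as Csf1r and C1qb, summed to 27.1, 38.8 and 30.9 and to 384, 155 and 182. Lasered replicate 1, with the highest Fcgr values, thus had the lowest microglia sum of the lasered libraries and the highest phagocyte sum. The 7 monocyte markers, among them Ly6c2 and Ccr2, summed to 0.594, 1.43 and 3.14 in controls and to 90.7, 4.71 and 6.62 in lasered retinas. The 10 neutrophil markers summed to 3.10, 2.63 and 4.57 and to 1114, 3.43 and 60.8, and the 4 platelet markers to 1.52, 1.85 and 2.08 and to 422, 3.72 and 5.75. The neutrophil sum of lasered replicate 1 came mostly from S100a9 (524), S100a8 (476) and Retnlg (95.5). Camp read 0.807 there, and Elane and Mpo 0. Only 1 of the 10 neutrophil markers lay above every control in all lasered libraries. The monocyte, neutrophil and platelet sums were all highest in lasered replicate 1, where all 6 genes were highest too. The part of these cells in the Fc receptor values was not tested.

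On day 7 the monocyte, neutrophil and platelet sums of the groups overlapped, while those of all 6 genes did not. Monocyte markers summed to 0.149 to 0.854 in controls and to 0.409 to 0.643 in lasered retinas, with Chil3 at 0 in all 6 libraries. Neutrophil markers summed to 0.365 to 1.27 and to 1.02 to 1.18, with Ly6g, Mmp8 and Elane at 0 in all 6, and platelet markers to 2.07 to 2.44 and to 1.58 to 3.32, with Ppbp at 0. Microglia markers summed to 52.5 to 57.8 in controls and to 79.9 to 116 in lasered retinas, and general phagocyte markers to 94.2 to 115 and to 345 to 444. For the last 2 lists the groups did not overlap. Of the microglia markers tested, 0 of 7 passed the threshold on day 3 and 0 of 5 on day 7, with 4 and 3 at an unadjusted p under 0.05, where 23.0% and 3.94% of all genes were. Of the general phagocyte markers tested, 1 of 9 rose on day 3, C1qb, and 6 of 8 rose on day 7, where 0.143% and 0.237% of all genes were called higher. Without lasered replicate 1 of day 3 these counts were 1 of 7 microglia and 7 of 8 phagocyte markers, against 1.70% of all genes. The part of microglia and other phagocytes in the Fc receptor values was not tested.

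**Figure D4:**
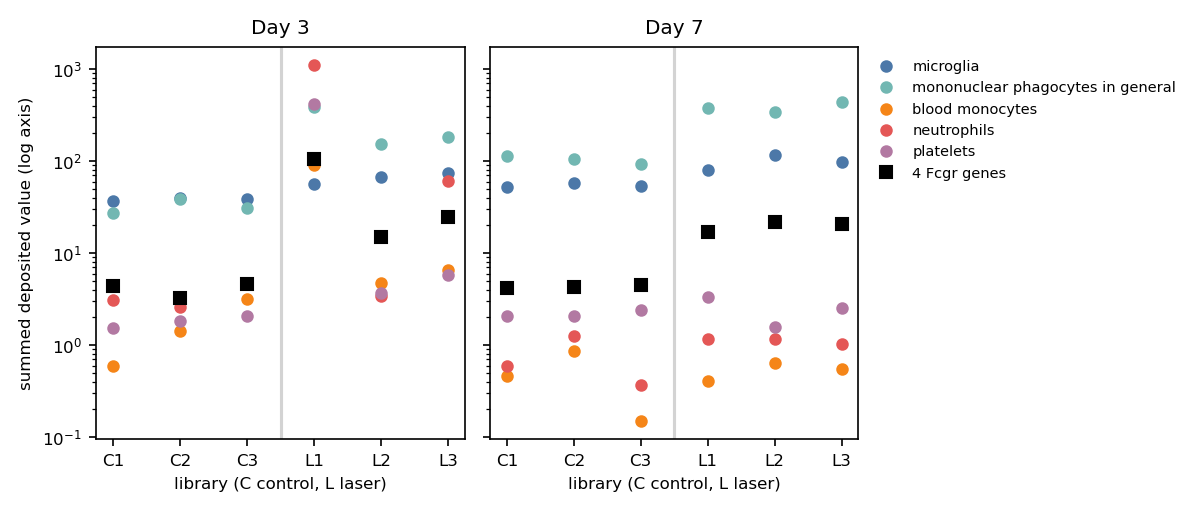
Summed deposited value (log axis) of 5 marker lists and of the 4 Fcgr genes in control (C) and lasered (L) libraries of each day, with 1 point per library. On day 3 the neutrophil, platelet and monocyte sums of L1 are 1114, 422 and 90.7, and on day 7 the lasered and control sums of these lists overlap.

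Fc receptor signalling beyond the 6 genes was followed in 7 lists with 95 genes, of which 47 were tested on day 3 and 46 on day 7. On day 3, 0 of 47 passed the threshold in either direction, while 0.143% of all genes tested were called higher and 0.00596% lower. At an unadjusted p under 0.05 (limma) were 22, where 23.0% of all genes were. Above 0 on the log2 scale were 45, but the median of all genes tested was itself 0.16 there (-0.03 after rescaling). Tested list genes with a control mean under 1, such as Lilrb4a (0.00963) and Rac2 (0.758), entered the fit through the lasered libraries. Their direction was therefore set by the filter, and nothing is read from the count of 45. The list medians below include such genes on both days. Without lasered replicate 1, 30 were tested and 6 passed as higher, among them Clec7a, Fgr, Irf1, Rac2 and Tyrobp, in a fit that called 1.70% of all genes higher. On day 7, 1 of 46 rose, Tyrobp, and 0 fell, with 13 at an unadjusted p under 0.05, where 3.94% of all genes were, while 0.237% of all genes were called higher and 0.00641% lower. List medians of day 3 without lasered replicate 1, given beside those with it, rest on fewer tested genes.

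Receptors and adaptors of the same kind as Fcer1g comprised 11 genes, with a median log2 difference of 1.77 over 5 tested genes on day 3 (1.48 over 2 without lasered replicate 1) and of 1.02 over 2 on day 7. Tyrobp, the other main ITAM adaptor of myeloid cells, read 14.0, 13.6 and 11.9 in day 7 controls and 51.0, 37.5 and 49.8 in lasered retinas, and rose by 1.73 (SE 0.18, adjusted p = 0.0202, higher in 3 of 3 libraries than in any control). It did not pass after median-of-ratios rescaling (adjusted p = 0.0659), nor with any 1 library other than lasered replicate 2 left out, with adjusted p from 0.0800 to 0.163. The day 3 values were 21.7, 17.0 and 21.8 for controls and 315, 46.1 and 69.5 after laser (2.27, adjusted p = 0.115), and without lasered replicate 1 it passed at 1.45 (adjusted p = 0.0250). Clec7a, the beta-glucan receptor Dectin-1, went from 0.481, 0.738 and 0.973 to 9.93, 3.48 and 4.32 on day 3 (1.89, adjusted p = 0.0883; 1.51 and 0.0225 without lasered replicate 1), and had a mean below the filter on day 7. Hcst, the adaptor DAP10, differed by 0.73 on day 3 (adjusted p = 0.527) and by 0.32 on day 7 (adjusted p = 1.00).

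Of 21 genes of activating Fc receptor signalling 15 were tested on each day, with a median log2 difference of 0.88 on day 3 (0.75 over 11 genes without lasered replicate 1) and 0.36 on day 7 and 0 past the threshold with all libraries. Rac2, the GTPase of the phagocyte oxidase and cytoskeleton, read 0.788, 0.814 and 0.671 in day 3 controls and 23.3, 3.87 and 5.52 in lasered retinas (2.38, adjusted p = 0.0938). It passed without lasered replicate 1, at 1.68 (adjusted p = 0.0134). On day 7 it differed by 1.38 (adjusted p = 0.264), without overlap between the groups. Lat2, an adaptor of immunoreceptors, differed by 1.11 on day 3 (adjusted p = 0.101) and by 0.40 on day 7 (adjusted p = 1.00).

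On the inhibitory side, among 10 phosphatases and adaptors that act downstream of ITIM receptors the median log2 difference was 0.78 over 6 tested genes on day 3 (0.63 over 4 without lasered replicate 1) and 0.10 over 8 on day 7, with 0 past the threshold on either day. Ptpn6, the phosphatase SHP-1, differed by 1.58 (adjusted p = 0.145) on day 3, by 0.92 (adjusted p = 0.0973) without lasered replicate 1, and by 1.07 (adjusted p = 0.315) on day 7. Inpp5d, the phosphatase SHIP-1 that Fcgr2b recruits, was below the filter on day 3, at 0.470 ± 0.136 in controls and 1.27 ± 0.762 in lasered retinas (SD, n = 3), and differed by 0.50 on day 7 (adjusted p = 1.00). Dok1, an adaptor that restrains signalling, differed by 1.22 on day 3 (adjusted p = 0.126), by 0.80 without lasered replicate 1 (adjusted p = 0.148), and by 0.64 on day 7 (adjusted p = 1.00).

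Among 12 other inhibitory receptors of myeloid cells the median was 0.88 over 8 tested genes on day 3 (0.29 over 3 without lasered replicate 1) and 0.11 over 3 on day 7, again with 0 past the threshold. Lilrb4a read 0, 0.0289 and 0 in day 3 controls and 14.7, 1.41 and 1.25 in lasered retinas (adjusted p = 0.145), and it was listed at 0 in all 6 libraries of day 7. Lair1, a collagen receptor, differed by 0.61 on day 3 (adjusted p = 0.170). Sirpa, the receptor for CD47, differed by 0.31 on day 3 (adjusted p = 0.249) and by 0.11 on day 7 (adjusted p = 1.00), and Milr1 by 0.51 (adjusted p = 0.286) and 0.25 (adjusted p = 1.00). Milr1 on day 3 differed by 0.22 without lasered replicate 1 (adjusted p = 0.581).

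Of 14 other Fc receptors 2 were tested on day 3 and 5 on day 7, with medians of 1.06 (0.63 without lasered replicate 1) and 0.38 and 0 past the threshold. Fcgrt, the neonatal receptor that recycles IgG, read 14.7, 13.4 and 11.9 in day 3 controls and 28.2, 15.6 and 21.7 in lasered retinas (0.64, adjusted p = 0.154). Fcamr, a receptor for IgA and IgM, differed by 1.48 on day 3 (adjusted p = 0.165), by 0.82 without lasered replicate 1 (adjusted p = 0.161), and by 0.58 on day 7 (adjusted p = 1.00). Trim21, the cytosolic antibody receptor, differed by 0.94 on day 7 (adjusted p = 1.00). Ms4a2, the beta chain of the IgE receptor, was listed at 0 in all 12 libraries.

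Ligands of the receptors came next. Of 15 immunoglobulin and pentraxin genes 4 were tested on day 3 and 3 on day 7, with medians of 0.33 (0.06 without lasered replicate 1) and 0.31 and 0 past the threshold. Jchain, the joining chain of IgM and IgA, differed by 0.54 on day 3 (adjusted p = 0.171), by 0.35 without lasered replicate 1 (adjusted p = 0.312), and by 0.31 on day 7 (adjusted p = 1.00). Ighm, the heavy chain of IgM, differed by 0.47 on day 3 (adjusted p = 0.300), by 0.25 without that library (adjusted p = 0.624), and by 0.79 on day 7 (adjusted p = 0.777). Ighg2c, an IgG heavy chain, was above 0 in all 12 libraries. It read 4.18, 3.50 and 4.46 in day 3 controls and 1.31, 2.57 and 4.93 in day 3 lasered retinas. Its log2 difference was -0.46 on day 3 and -0.16 on day 7. Ighg3, another IgG heavy chain, and the pentraxin Apcs were listed at 0 in all 12 libraries. IgG reaches tissue from the blood as protein, which these libraries do not measure.

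The list of transcription factors and the interferon gamma axis had 12 genes, with a median of 1.15 over 7 tested genes on day 3 (0.73 over 4 without lasered replicate 1) and 0.53 over 10 on day 7, and 0 past the threshold with all libraries. Ifng, which encodes interferon gamma, had 0 reads in day 3 controls and 1 read in all in day 3 lasered retinas, and was listed at 0 in all 6 libraries of day 7. Irf1, induced by interferon gamma, read 4.27, 4.88 and 3.63 in day 3 controls and 78.3, 13.6 and 15.2 in lasered retinas (2.35, adjusted p = 0.103). It passed without lasered replicate 1, at 1.56 (adjusted p = 0.00924). On day 7 it read 5.94, 5.78 and 5.88 and 11.3, 11.2 and 12.0 (0.86, adjusted p = 0.261). Spi1, which encodes PU.1, read 0.874, 0.795 and 1.03 in day 7 controls and 3.32, 2.76 and 3.87 in lasered retinas (1.18, adjusted p = 0.231).

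The genes with the most similar profiles were found by the root mean square difference over the 12 libraries, on the scale of log2(value + 1) and relative to the controls of each day, among 10313 other named protein-coding genes (10314 for Fcgr2b). Fcgr3 was nearest to Tyrobp, at 0.15, followed by Cd68 and Fcer1g at 0.28 each. Fcer1g was nearest to Fcgr3 (0.28), Cd53 (0.30) and Oasl2 (0.31). Fcgr4 was nearest to Rac2 (0.21), Itgb2 (0.22) and Cd44 (0.22), and Fcgr1 to Cd44 (0.23), Fcgr4 (0.27) and Akr1b8 (0.31). Fcgr2b, whose low values compress this scale, was nearest to Dhx58 (0.19), Parp12 (0.20) and Adamts1 (0.21). Fcrls was nearest to C1qb (0.26), Serping1 (0.28) and Cd68 (0.38). The libraries enter every one of these profiles, so nearness is a description of these 12 libraries.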

How the data were processed

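Poly(A) RNA of 12 retina libraries was sequenced with a directional kit, per the labels' protocols. Per the submitters' processing notes, STAR 2.7.0, edgeR 3.28.0 and mm10 were involved, in roles not stated. The sources used here do not state how reads were counted, nor the annotation or strand setting. Values form a deposited signal in 1 table per day, named TPM by the authors, with column sums of 953049 to 1045986. Multiplied by GENCODE M21 exon length, it is whole multiples of 1 step per library (98.9% to 99.2% of values under 20 reads within 0.05, where chance gives 10%) once a factor of 0.955 to 1.05 that cycles with table row is removed. These steps gave the reads. A count of 3 reads per kb is 0.445 to 0.605 on day 3 and 0.292 to 0.380 on day 7.

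Each day was fitted with limma 3.58.1 (R 4.3.3, trended prior, 2-sided) on log2(value + 1) of genes with a mean of at least 1, adjusted by Benjamini-Hochberg over all genes tested at 0.05, and the laser effect of day 7 minus that of day 3 over all 12 libraries. The tests were set for TPM and applied unaltered to this signal. The fit was tested on simulated data with little spread between libraries and with changes placed only in genes of higher values. That test does not cover genes of low values or the wide spread of the day 3 lasered libraries. Tables were handled in pandas 2.3.3 and NumPy 2.4.6 under Python 3.11.15, and plots drawn in matplotlib 3.10.9. Groups and replicate numbers come from titles, and 0 columns lacked a sample. Members and lists were chosen with earlier results of these data known. Named genes are the 6 members, in each pathway list any gene past the threshold and the 2 smallest p per day, and the 3 nearest profiles per member. Some genes under this rule are not reported here. Fgr is named beyond it, in a count chosen after its values were seen. Ifng and Ighg2c are named beyond it as well, also after their values were seen. The design text makes the left eye the control of the right eye. Deviations from group means correlated between equal numbers by 0.485, 0.559 and 0.128 on day 7, and by 0.0413, 0.0162 and 0.0766 on day 3. Lasered replicate 3 of day 7 correlated better with control replicate 1, by 0.205. Alternatives were another pseudocount, no filter, rescaling, the factor removed, a replicate block and each library left out.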

Additional observations from a re-analysis of the deposited data

How the results depend on the processing

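All 124 recomputed member differences kept their sign under every alternative that gave one. With a pseudocount of 0.1 those in the fit were larger, up to 4.20 for Fcrls on day 3, and Fcgr2b on day 3 stood at 3.59. Of the members past the threshold, the 1 on day 3 was 0 after rescaling, with the cyclic factor removed, without the filter and with the replicate block, and the 2 on day 7 were 0 without the filter. After rescaling they were again 2, with Fcer1g in place of Fcgr3.

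The number of genes called on day 3, 25, was 14 after median-of-ratios rescaling, 0 without the filter and 0 with the replicate block, and 0 to 294 with single libraries left out: 294 without lasered replicate 1, 1 without lasered replicate 3 and 0 with any 1 control left out. On day 7, 38 genes were called, 24 after rescaling, 13 without the filter, and 0 to 41 with single libraries left out: 9, 6 and 0 without control replicates 1, 2 and 3 and 11 and 0 without lasered replicates 1 and 3. On day 7 the replicate block gave 53. It changed no call of a named pathway gene on either day. On day 3, where the correlations between equal numbers were only 0.0162 to 0.0766, every lasered library still correlated best with the control of its own number. On day 7 that did not hold for lasered replicate 3. For the difference between days 0 genes were called, 2 with a pseudocount of 0.1, 28 without the filter and 0 to 3 with single libraries left out.

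The pathway genes called on day 3, 0, ranged from 0 to 6 with libraries left out. The 1 called on day 7 became 0 after rescaling and ranged from 0 to 1. Jchain on day 7 turned to -0.12 without lasered replicate 2, within a range of -0.12 to 0.53 over libraries left out. The laser minus control share of Fcgr2b was 4.19 percentage points on day 3 (2.45 to 5.17 with libraries left out) and 1.89 on day 7 (0.150 to 3.62). The cause of these changes was not tested. Reads limit the controls of Fcgr4, Fcgr2b, Fcgr1 and Fcrls on day 3 most, at 8, 11, 24 and 24 in 3 libraries.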

Other observations

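Lists of other cells that can carry Fc receptors were low. On day 7 the 7 dendritic cell markers summed to 3.28 to 5.13 in controls and 6.56 to 8.32 in lasered retinas, without overlap and with Clec9a at 0 in all 6 libraries. On day 3 they summed to 1.16 to 1.41 and 1.15 to 13.2. The 6 natural killer cell markers summed to 0.521 to 0.873 in controls and 0.659 to 3.32 in lasered retinas on day 3, and to 3.36 to 6.61 and 2.38 to 3.54 on day 7, with Ncr1 at 0. Nearly all of the day 7 sum was Eomes, at 3.31 to 6.19 in controls and 2.25 to 3.29 in lasered retinas. The 5 B cell markers summed to 0.433 to 1.05 and 0.800 to 2.19 on day 3 and to 1.16 to 1.40 and 1.00 to 1.40 on day 7, with Ms4a1 at 0. The 5 T cell markers summed to 0.198 to 0.418 and 0.335 to 3.26 on day 3, and to 0.395 to 0.746 and 0.839 to 1.11 on day 7, with Cd3g at 0. The 5 mast cell and basophil markers summed to at most 0.880 on day 3 and 0.476 on day 7, with Cma1 at 0 on day 3 and Cpa3 and Mcpt8 at 0 on day 7.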
